A study of Homo sapiens with 6 samples.

Results

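The subject is the cancer-testis antigen genes of A375, a human melanoma line in long-standing culture, in cells sorted by aldehyde dehydrogenase activity. The genes were chosen by name: every protein-coding row of the deposited tables whose symbol begins with MAGE, GAGE, XAGE, SSX or CTAG, together with PRAME, which gave 69 of 57914 gene rows (19779 of them protein-coding). Cells grown in DMEM with serum were stained with Aldefluor, a substrate that becomes fluorescent and is retained where aldehyde dehydrogenase is active. The 5% of cells with the brightest signal (ALDH_High, 3 libraries) and the 5% with the dimmest (ALDH_Low, 3 libraries) were collected by flow cytometry, and stranded mRNA libraries were made from 500 ng of total RNA. Both groups came from the same untreated line and went through the same stain and sort, so neither group is an unsorted control. The 2 groups are the extremes of a continuous signal within 1 cell line.

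Cancer-testis genes are normally transcribed in male germ cells and little elsewhere, and many tumours, melanoma prominently among them, transcribe them again. Most lie on the X chromosome in families of recent duplicates, and methylation of CG dinucleotides at their promoters is the best-known barrier to their use in somatic cells. Peptides of several of these proteins are displayed on MHC molecules and recognised by T cells, which made MAGE-A, NY-ESO-1 (encoded by CTAG1A and CTAG1B) and PRAME targets of vaccines and engineered T cells. The MAGE name also covers type II genes (MAGE-D, E, F, H and L), which are transcribed in many normal tissues and are not cancer-testis genes in the strict sense. The CTAGE genes and SSX2IP, which encodes a centrosomal protein that binds SSX2, match the rule by the letters of their names only.

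Of the 67 members with a position in GENCODE 44 on GRCh38, 59 lie on chromosome X. Over the 6 libraries the total count lay between 26692868 and 37830603. ALDH1A3, the enzyme named with the sort, was measured at 683, 1149 and 1088 CPM (counts scaled to library size) in the ALDH_High libraries and 345, 419.5 and 403 in the ALDH_Low libraries, a log2 difference of 1.32 (SE 0.19, edgeR adjusted p = 7.34e-04). ALDH_High library 1 stood apart from the others on the second principal component of all genes (35.6, against -16.4 and -22.5 for the other ALDH_High libraries). Values without it are given below for MAGED1, MAGED2, MAGEH1, PRAME and the CTAG1 and GAGE genes. Defining transcripts of testis germ cells were at or near 0 in all libraries: DAZL, PRM1, PRM2 and TNP1 had no count, DDX4 at most 1 and SYCP3 at most 4. Of 6 white blood cell markers HBB had no count and PTPRC at most 4, LYZ was higher (log2 1.65) and CD14 lower (-1.96), and their summed TPM was 3.51 to 7.9 in ALDH_High and 1.94 to 2.77 in ALDH_Low. Among 8 melanocyte-lineage markers SOX10 (log2 1.79) and S100B (4.28) were higher in ALDH_High and MITF (-0.92) was lower, with MLANA and TYR at 3 counts or fewer. PMEL, DCT and TYRP1 had at most 19, 10 and 11 counts, with overlapping groups. The summed TPM of those 8 markers was 428 to 514 in ALDH_High and 119.5 to 130.4 in ALDH_Low. Most of that sum was SOX10, with 366 to 447 TPM in ALDH_High and 102 to 116 in ALDH_Low. The part of these markers in the differences below was not tested.

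The families share sequence at their promoters as well as in their transcripts, which bears on how far single rows can be read. RefSeq (GRCh38.p14) lists starts for 60 of the 69 members. The 250 bases before the first listed start are printed 5′ to 3′ on the strand of the gene, with CG dinucleotides in capitals. They are shown for SSX2 and SSX4, whose counts were both higher in ALDH_High, and for MAGEA3 and MAGEA4, abundant genes that did not pass the test.
SSX2 (chrX:52707228-52707477, minus strand): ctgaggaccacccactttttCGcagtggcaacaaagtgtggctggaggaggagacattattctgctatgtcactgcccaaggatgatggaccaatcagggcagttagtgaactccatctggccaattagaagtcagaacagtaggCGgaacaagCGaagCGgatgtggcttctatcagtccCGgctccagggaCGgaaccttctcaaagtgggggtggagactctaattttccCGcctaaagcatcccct
SSX4 (chrX:48383289-48383538, plus strand): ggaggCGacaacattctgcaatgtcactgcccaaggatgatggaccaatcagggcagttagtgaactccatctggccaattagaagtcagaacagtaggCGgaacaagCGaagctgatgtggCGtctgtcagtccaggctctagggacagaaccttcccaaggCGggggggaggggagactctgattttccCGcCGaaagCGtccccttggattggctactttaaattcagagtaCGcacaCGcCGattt
MAGEA3 (chrX:152698544-152698793, plus strand): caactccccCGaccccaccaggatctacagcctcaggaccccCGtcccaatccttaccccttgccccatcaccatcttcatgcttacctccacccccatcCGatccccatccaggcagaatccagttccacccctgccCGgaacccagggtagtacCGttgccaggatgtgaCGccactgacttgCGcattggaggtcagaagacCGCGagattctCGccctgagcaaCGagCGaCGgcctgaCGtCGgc
MAGEA4 (chrX:151912224-151912473, plus strand): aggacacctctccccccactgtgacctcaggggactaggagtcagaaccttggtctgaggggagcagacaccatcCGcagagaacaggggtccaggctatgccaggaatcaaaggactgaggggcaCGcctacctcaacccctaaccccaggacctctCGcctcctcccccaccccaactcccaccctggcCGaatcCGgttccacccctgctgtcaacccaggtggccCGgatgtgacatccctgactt
In GENCODE 44 the last 23 bases of the SSX4 window and the last 27 of the MAGEA3 window fall within an exon of the same gene, 70 bases of the MAGEA3 window lie in an exon of the divergent transcript MAGEA3-DT, and 65 bases of the MAGEA4 window lie in an exon of MAGEA4-AS1. The SSX2 window overlaps no annotated exon.

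The SSX2 and SSX4 windows share an unbroken run of 94 identical bases. Long parts of that sequence also occur in the windows of SSX5, which had no count, and SSX7, which had at most 3. The likeness is therefore not particular to SSX2 and SSX4. SSX2 and its copy SSX2B share a run of 201 at their first listed starts, and all 250 bases when the other listed start of SSX2 is taken; for MAGEA2 and MAGEA2B the runs are 208 and 250 in the same way. The windows of MAGEA3 and MAGEA6 are identical over all 250 bases, as are those of MAGEA9 and MAGEA9B and of XAGE1A and XAGE1B. By comparison, the longest run shared by MAGEA4 and MAGEA3 over all their listed starts is 20 bases, and that shared by PRAME and MAGEA3 is 9. The printed windows hold 7 CG dinucleotides for SSX2, 11 for SSX4, 15 for MAGEA3 and 6 for MAGEA4. The windows of the further listed starts of MAGEA4 hold 7, 11, 12 and 14, and which start these cells use was not measured. Over all 35116 promoter windows of the same length the median is 11. It was 9 over the 25 members with a window and enough counts to be tested (range 5 to 26), and 8 over the 35 members with a window that were too low to test (range 1 to 22). The motif CCGGAA, a form of the site recognised by ETS transcription factors, was searched on both strands. It occurs in 14.5% of all windows, in 4 of those 25 and in 1 of those 35. Other forms were not searched, so the CCGGAT in the printed MAGEA4 window is not counted. The counts do not show which promoters lack an ETS site. These are counts of letters and not evidence of binding or methylation, neither of which was measured.

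Of the 69 members, 45 had more than 3 counts in at least 1 library, the count floor used here, and 24 did not; 12 of those 24 had no count in any library. By family, the floor was passed by 10 of 12 MAGE-A rows, 2 of 11 MAGE-B, 3 of 3 MAGE-C, 8 of 11 GAGE, 4 of 5 XAGE, 5 of 7 SSX and 3 of 3 CTAG. It was passed by 8 of 9 type II MAGE rows, by PRAME and SSX2IP, and by none of the 6 CTAGE rows. A total of 30 members passed edgeR's filter on low counts and were tested.

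A375 cells used these genes unevenly, and the same few dominated in both sorted fractions. Levels are compared between genes in TPM, a unit that is corrected for transcript length. MAGEA4, whose protein is a T-cell therapy target, had 881, 923 and 921 TPM in the ALDH_High libraries and 864, 938 and 884 in the ALDH_Low libraries. XAGE1A came next, with 551, 632 and 602 TPM in ALDH_High and 705, 669 and 801 in ALDH_Low. MAGEA4 ranked 151 and XAGE1A 203 among 19779 protein-coding rows by mean TPM over the 6 libraries, while the next member, MAGEA3, ranked 940 at 159 TPM.

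Below them CTAG1A had a mean of 129 TPM, MAGEA6 121, MAGEC2 100.2, MAGEA12 99.7, MAGEA2B 94 and PRAME 90.6. Several of these share reads with a copy, so the order between them is uncertain. At the lower end of the tested members, MAGEA1 had 3.28 TPM, MAGEB2 2.38, MAGEE1 1.1 and MAGEC1 0.107. Summed over all 69 members, the level was 2602, 2734 and 2730 TPM in ALDH_High and 2687, 2741 and 2777 in ALDH_Low, so the groups overlapped in total output. MAGEA4 alone supplied between 31.8% and 34.2% of it, and MAGEA4 with XAGE1A between 55% and 60.7%.

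**Figure D1:**
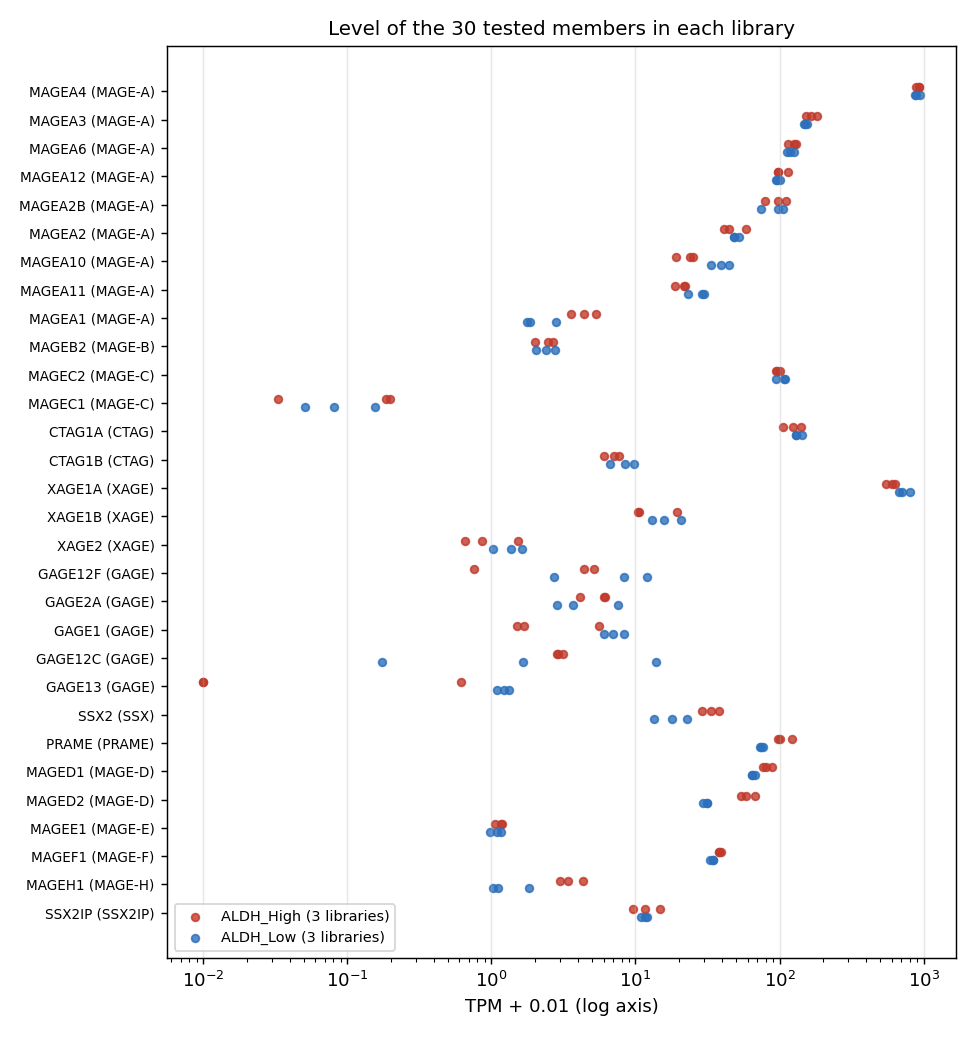
Level of each of the 30 tested members in TPM + 0.01 on a log axis, 1 point per library, red for the 3 ALDH_High and blue for the 3 ALDH_Low libraries. MAGEA4 and XAGE1A lie furthest right in both groups, and the 2 colours overlap for most members. GAGE13 has 2 ALDH_High points at the left edge, where TPM is 0.

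Against that shared background, 5 members were higher and 2 lower in ALDH_High, and 23 did not pass (edgeR quasi-likelihood F-test, two-sided, Benjamini-Hochberg adjusted p below 0.05). The higher ones were MAGEA1, SSX2, PRAME, MAGED2 and MAGEH1, and the lower ones MAGEA10 and MAGEA11. The 7 called members are 23.3% of those tested, beside 20.6% of all 17047 genes tested (10.8% higher and 9.83% lower) and 22.4% of 510 protein-coding genes of chromosome X (14.5% higher, 7.84% lower). A share this near the background is not a result about the families as a set. With near-identical copies summed, 7 of 22 rows passed (5 higher, 2 lower), beside 20.6% of 17039 genes. The share thus depends on how copies are counted, and the families were not tested as a set. The median log2 difference was -0.018 over the 30 members and -0.013 over all genes. In 12 of the 30 members the 3 ALDH_High libraries lay entirely above (7) or below (5) the 3 ALDH_Low libraries in CPM, beside 37.8% of all genes tested. A bulk difference cannot tell fewer cells that use a gene apart from less RNA per cell. Nothing in the labels says that the replicates are separate cultures, so p-values measure only the spread between these libraries.

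**Figure D2:**
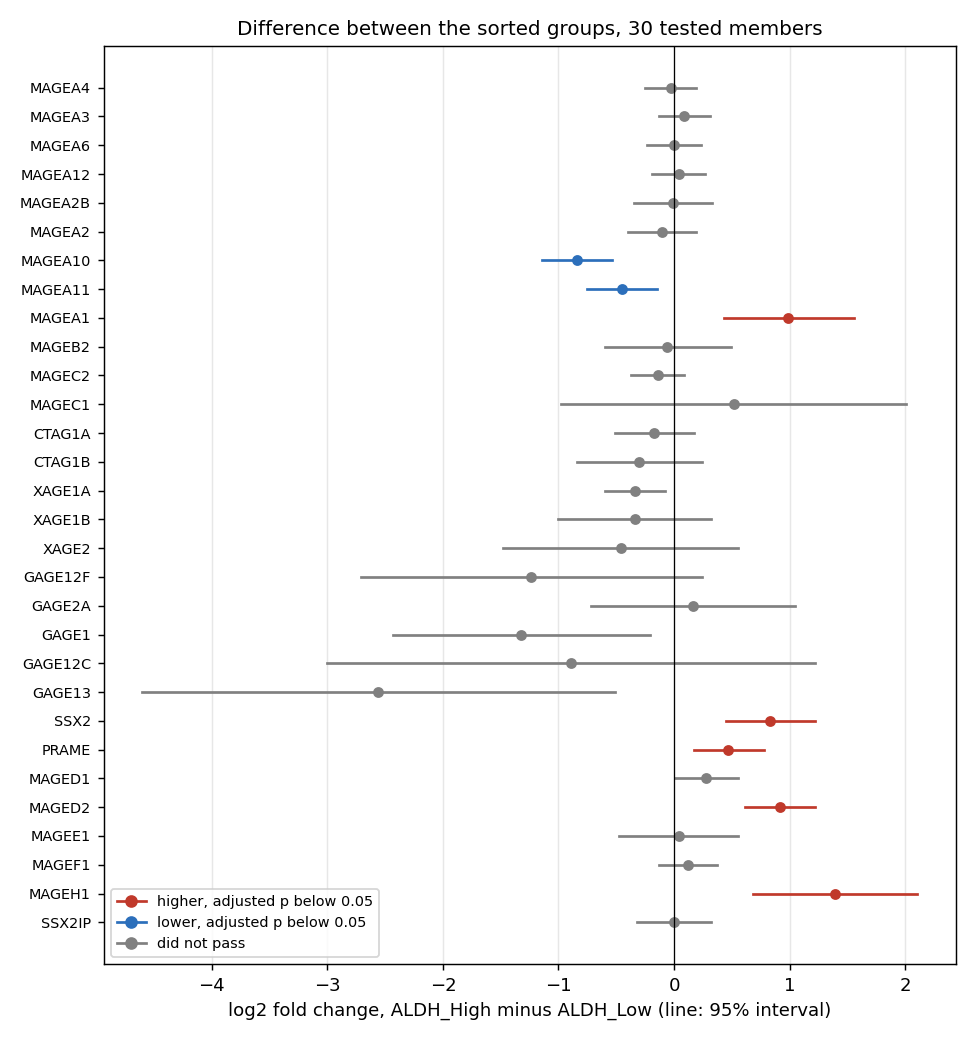
Log2 fold change (ALDH_High minus ALDH_Low) of the 30 tested members, with 95% intervals as lines, in the same order as the plot of levels. Red marks the 5 members called higher, blue the 2 called lower and grey the 23 that did not pass; the widest intervals are those of GAGE12C and GAGE13.

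MAGE-A genes, which encode adaptors of ubiquitin ligases, gave calls in both directions: of 9 tested, 1 was higher, 2 were lower and 6 did not pass. MAGEA1 (ENSG00000198681, chrX:153179284-153183880), the founding gene of the family and the first human tumour antigen gene found through recognition by T cells, had 4.22, 4.72 and 5.6 CPM in ALDH_High and 3.11, 1.97 and 2.19 in ALDH_Low. The groups did not overlap, and all ALDH_High values lay above the highest ALDH_Low value. The fold was 1.99 (95% interval 1.34 to 2.94), a log2 difference of 0.99 with SE 0.25 and an edgeR adjusted p of 0.0198. Over 15 alternative fits the log2 difference stayed between 0.8 and 1.23, with adjusted p between 0.00331 and 0.099, and 10 passed. The call was lost in edgeR without ALDH_High library 2 (adjusted p 0.052) or 3 (0.0718) and without ALDH_Low library 2 (0.0763) or 3 (0.0759), and in limma without a TPM filter (0.099).

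MAGEA10 (ENSG00000124260, chrX:152133310-152138578) went the other way, with 28.5, 34 and 31.8 CPM in ALDH_High and 47.6, 62.6 and 58.7 in ALDH_Low. The lowest ALDH_Low library was above every ALDH_High library. It was 1.79-fold lower in ALDH_High, a log2 difference of -0.84 (SE 0.14, edgeR adjusted p = 0.0018). All 15 alternatives kept the call, with log2 differences between -0.93 and -0.76 and a largest adjusted p of 0.0387. A read-through row named MAGEA10-MAGEA5 overlaps it and shares 13.9% of its 50-base stretches. That row had 11, 6 and 11 counts in ALDH_High and 31, 41 and 26 in ALDH_Low, with a log2 difference of -1.75 (adjusted p = 0.0174, edgeR), so reads of the 2 rows cannot be told apart there.

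MAGEA11 (ENSG00000185247, chrX:149688228-149717268), which encodes a coregulator of the androgen receptor, had 27.1, 28.8 and 27.6 CPM in ALDH_High and 31.6, 41 and 41.9 in ALDH_Low. The groups did not overlap, but ALDH_Low library 1 lay nearer to the ALDH_High values than to the other ALDH_Low values. The log2 difference was -0.45 (SE 0.14, edgeR adjusted p = 0.0399). This was the least stable of the 7 calls by the number of alternatives passed: 7 of 15, with log2 differences of -0.56 to -0.38 and adjusted p of 0.0211 to 0.173. It was lost in every fit that left out 1 library except that without ALDH_Low library 1, and in all 3 limma fits on TPM.

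MAGEA4 (ENSG00000147381, chrX:151912495-151925171) had 929, 879 and 857 CPM in ALDH_High and 859, 929 and 931 in ALDH_Low. The groups overlapped, and the log2 difference was -0.029 with a 95% interval of -0.25 to 0.19. Of its 50-base stretches 97.7% occur in no other gene of GENCODE 44. Its antisense row MAGEA4-AS1 had a log2 difference of -0.29 (edgeR adjusted p = 0.376).

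The MAGE-A genes with close copies also showed small differences. MAGEA3 and MAGEA6, which both bind the ubiquitin ligase TRIM28, had group means of 185 ± 7.83 and 174 ± 5.81 CPM (MAGEA3, ALDH_High and ALDH_Low, SD, n = 3) and 137 ± 3.73 and 137 ± 8.83 CPM (MAGEA6). Added together, since only 44.2% and 46.3% of their 50-base stretches are their own, they gave a log2 difference of 0.05 (95% interval -0.17 to 0.27). MAGEA2 and MAGEA2B, with 3.6% and 11.9% of stretches their own, gave a summed difference of -0.048 (-0.3 to 0.2). MAGEA12 had 111 ± 7.92 and 108 ± 2.82 CPM, a log2 difference of 0.041 (-0.19 to 0.27).

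**Figure D3:**
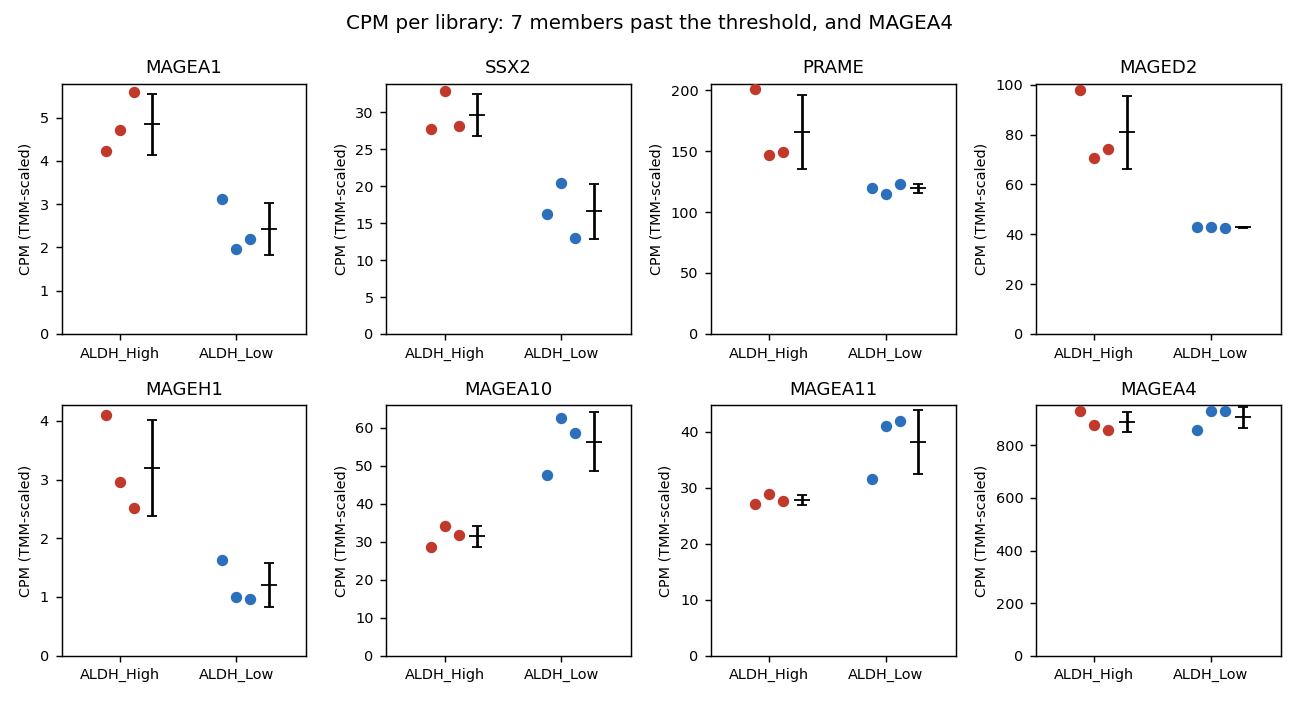
CPM scaled with TMM factors in each library (points, red ALDH_High, blue ALDH_Low) for the 7 members past the threshold and for MAGEA4, with the group mean and SD (black, n = 3) beside the points. The groups are separate in the first 7 panels and overlap for MAGEA4; ALDH_High library 1 is the highest point for PRAME, MAGED2 and MAGEH1.

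SSX genes encode transcriptional repressors that associate with Polycomb complexes and are known as fusion partners of SS18 in synovial sarcoma. SSX2 (ENSG00000241476, chrX:52696896-52707178) was the 1 SSX row that could be tested, and it was higher in ALDH_High. It had 27.8, 32.9 and 28.2 CPM in ALDH_High and 16.3, 20.5 and 13 in ALDH_Low, with no overlap. The fold was 1.78 (95% interval 1.36 to 2.33) and the log2 difference 0.83 (SE 0.17, edgeR adjusted p = 0.00707). Over the alternatives the log2 difference lay between 0.69 and 1.01 and the adjusted p between 7.51e-06 and 0.0644, and 14 of 15 passed; limma without a TPM filter did not.

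None of the 50-base stretches of SSX2 is its own, because all occur in SSX2B as well. The deposited counts divided the pair very differently between libraries. SSX2B took 0.283%, 0.351% and 6.52% of the pair's counts in the ALDH_High libraries and 0%, 0.486% and 37.5% in the ALDH_Low libraries. In ALDH_Low library 3 that was 217 of 579 counts (Wilson 95% interval 33.6% to 41.5%), and the SSX2 row alone was lowest in that library. The interval covers counting error only and not the uncertainty in how shared reads were assigned. Summed, the pair had 27.9, 33 and 30.1 CPM in ALDH_High and 16.3, 20.6 and 20.8 in ALDH_Low. The sums did not overlap, and the log2 difference of the pair was 0.66, below the 0.83 of SSX2 alone (SE 0.14, edgeR adjusted p = 0.00868). It passed in each of the 6 fits that left out 1 library (0.56 to 0.72, adjusted p 0.00655 to 0.0399).

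The other SSX rows were low. SSX4 had 23, 16 and 9 counts in ALDH_High and 4, 3 and 1 in ALDH_Low. When low counts were not filtered its log2 difference was 2.66 (95% interval 1.3 to 4.03, edgeR adjusted p = 0.00173). That fit also called SSX2B lower (edgeR adjusted p = 4.25e-05), although the SSX2B groups overlapped. For low rows its p-values and intervals are therefore not a safe measure of the spread between libraries. Of the SSX4 stretches, 99.7% are shared with SSX4B. SSX1 had 0, 1 and 3 counts in ALDH_High and 6, 7 and 6 in ALDH_Low (adjusted p = 0.149, edgeR without the filter). Its ALDH_Low mean CPM was 2.07-fold that of 3 counts in each ALDH_High library, with no allowance for the spread between libraries. SSX3 had between 1 and 11 counts with overlapping groups, and SSX5 had none.

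PRAME (ENSG00000185686, chr22:22547701-22559361), a substrate receptor of CUL2 ubiquitin ligases and a repressor of retinoic acid receptor signalling, lies outside the X chromosome. It has no close copy by this measure, as all its 50-base stretches are its own. It had 201, 147 and 149 CPM in ALDH_High and 119.9, 115 and 123 in ALDH_Low. The groups did not overlap, and ALDH_High library 1 stood well above the other two. The fold was 1.39 (95% interval 1.13 to 1.71) and the log2 difference 0.47 (SE 0.14, edgeR adjusted p = 0.0331). An exact permutation test over libraries gave p = 0.1, the smallest that 3 against 3 allows.

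Without ALDH_High library 1 the PRAME difference was 0.33 and still passed (adjusted p = 0.0267, edgeR). The call was lost when any 1 ALDH_Low library was left out (0.49 without library 1, 0.45 without 2 and 0.5 without 3, adjusted p 0.0803, 0.114 and 0.0851). Over all 15 alternatives the range was 0.33 to 0.57, with adjusted p from 0.0037 to 0.114, and 12 passed.

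Type II MAGE genes held 2 of the 5 higher calls. MAGED2 (ENSG00000102316, chrX:54807599-54816015), which is needed for salt transport in the fetal kidney, had 97.7, 70.7 and 74.2 CPM in ALDH_High and 42.8, 42.9 and 42.7 in ALDH_Low. The ALDH_Low libraries were nearly equal, and all ALDH_High libraries were far above them. The fold was 1.89 (95% interval 1.53 to 2.34), a log2 difference of 0.92 (SE 0.14, edgeR adjusted p = 0.00109). It passed in all 15 alternatives (0.78 to 1.02, largest adjusted p 0.00893), and the lowest value was that without ALDH_High library 1.

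MAGEH1 (ENSG00000187601, chrX:55452127-55453566) was low, with 4.1, 2.95 and 2.52 CPM in ALDH_High and 1.63, 1 and 0.971 in ALDH_Low. The groups did not overlap. Its log2 difference of 1.39 (SE 0.32, edgeR adjusted p = 0.0119) was the largest in size among the 7 calls. Over the alternatives it lay between 0.98 and 1.7 (adjusted p 6.27e-04 to 0.0628) and 12 of 15 passed, with 1.19 and an adjusted p of 0.0256 without ALDH_High library 1. The call was lost in edgeR without ALDH_Low library 2 (1.27, adjusted p 0.051) or 3 (1.26 and 0.0551) and in limma without a TPM filter (0.98 and 0.0628).

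MAGED1, an adaptor that binds the nerve growth factor receptor NGFR, had 188, 147 and 152 CPM in ALDH_High and 136, 129 and 137 in ALDH_Low. Its groups did not overlap, but the log2 difference of 0.28 did not pass (edgeR adjusted p = 0.14; 0.0495 to 0.317 over the alternatives, of which 1 limma fit passed, that on log2(TPM + 1) after genes below 1 TPM on average were removed). Without ALDH_High library 1 it was 0.18 (adjusted p 0.184). MAGEF1, which forms a ubiquitin ligase with NSMCE1, had 38.8 ± 2.27 and 35.7 ± 1.98 CPM, and MAGEE1, which binds dystrobrevin, 2.83 ± 0.332 and 2.75 ± 0.158 (ALDH_High and ALDH_Low, SD, n = 3). Their log2 differences were 0.12 and 0.039. MAGED4B, below the filter, had 10, 10 and 14 counts in ALDH_High and 3, 0 and 3 in ALDH_Low. Its ALDH_High mean CPM was 3.83-fold that of 3 counts in each ALDH_Low library, with no allowance for the spread between libraries. Its copy MAGED4 shares 96.3% of its stretches and had at most 4 counts, with overlapping groups. MAGEL2, an imprinted gene of the Prader-Willi region, had at most 10 counts.

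XAGE genes did not pass the test. XAGE1A (ENSG00000204379, chrX:52495808-52500812) had 197, 205 and 190.3 CPM in ALDH_High and 238, 226 and 287 in ALDH_Low. The groups did not overlap, but the log2 difference of -0.34 had an edgeR adjusted p of 0.0687 (0.0428 to 0.226 over the alternatives, passing with upper-quartile factors only). None of its stretches is its own, and XAGE1A with XAGE1B summed gave the same log2 difference of -0.34 (95% interval -0.6 to -0.08, adjusted p = 0.0672). XAGE1B had 3.19 ± 1.16 and 4.05 ± 0.857 CPM and XAGE2 0.347 ± 0.16 and 0.481 ± 0.103 (ALDH_High and ALDH_Low, SD, n = 3), with log2 differences of -0.34 and -0.46. XAGE3 had at most 4 counts in any library.

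CTAG1A and CTAG1B, which encode the same NY-ESO-1 protein, are copies with 1% and 0% of stretches of their own. CTAG1A had 57.9, 45.8 and 38.3 CPM in ALDH_High and 55.8, 50.4 and 53.3 in ALDH_Low, with overlapping groups. CTAG1B had 4 ± 0.706 and 4.91 ± 1.09 CPM (ALDH_High and ALDH_Low, SD, n = 3). Summed, their log2 difference was -0.18 (95% interval -0.51 to 0.15, edgeR adjusted p = 0.459). Single libraries moved that value without giving a call: it was -0.34 without ALDH_High library 1 (adjusted p 0.0562) and -0.041 without ALDH_High library 3 (0.897). CTAG1A alone was -0.17, and -0.32 without ALDH_High library 1. The pair was divided evenly across libraries, with CTAG1B at 6.89% to 10.1% of the counts, unlike SSX2 and SSX2B. CTAG2 had at most 5 counts.

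MAGE-B and MAGE-C rows gave no calls. MAGEC2, a further TRIM28 partner, had 129.6 ± 7.28 and 143 ± 6.13 CPM (ALDH_High and ALDH_Low, SD, n = 3), a log2 difference of -0.14 with a 95% interval of -0.37 to 0.087. MAGEB2 had 2.35 ± 0.201 and 2.45 ± 0.311 CPM, a difference of -0.058 (-0.6 to 0.49), and MAGEC1 0.337 ± 0.225 and 0.246 ± 0.169, a difference of 0.52 (-0.98 to 2.01). MAGEB6, MAGEC3 and MAGEA9B stayed below the filter with at most 6, 8 and 19 counts. SSX2IP, with 22.4 ± 3.63 and 22.4 ± 0.484 CPM, had a log2 difference of 0.0026 (-0.32 to 0.32).

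GAGE genes lie in a tandem array on Xp and encode small acidic proteins with nearly identical sequences, so single GAGE rows are uncertain. GAGE1, with 87.1% of stretches its own, is the most distinct of the tested rows by this measure. The measure pools all annotated transcripts of a gene, and GAGE1 has 3136 stretches beside 536 for GAGE12F. How many of the GAGE1 counts come from stretches of its own is therefore not known. GAGE1 had 2.68, 0.637 and 0.704 CPM in ALDH_High and 3.76, 2.71 and 3.34 in ALDH_Low. The groups did not overlap, though ALDH_High library 1 lay just below the lowest ALDH_Low library. The log2 difference was -1.32 (SE 0.5), which did not pass (edgeR adjusted p = 0.0919; 9.40e-04 to 0.253 over the alternatives, 4 of 15 passing). Without ALDH_High library 1 it was -2.27 and passed (9.40e-04), and with the replicate number as a block it was -1.55 and passed (0.0169).

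The other tested GAGE rows were more scattered. GAGE12F had 1.81, 0.232 and 1.38 CPM in ALDH_High and 4.07, 0.903 and 2.95 in ALDH_Low, a difference of -1.24 (edgeR adjusted p = 0.234; with the replicate block -1.32 and 0.0135; 0.00626 to 0.567 over the alternatives). GAGE13 had 0.197, 0 and 0 CPM in ALDH_High and 0.311, 0.368 and 0.359 in ALDH_Low (adjusted p = 0.0786; 0.00529 to 0.232 over the alternatives, passing without ALDH_High library 1 and when low counts were not filtered). GAGE12C had 4.02, 0.468 and 0.0359 CPM in the ALDH_Low libraries against 0.868, 0.868 and 0.762 in ALDH_High, so 1 library carried its ALDH_Low mean. GAGE2A had 1.56 ± 0.392 and 1.37 ± 0.707 CPM (SD, n = 3). With the replicate block 9 members passed, 5 higher and 4 lower, beside 22% of all genes.

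GAGE12E, below the filter, had no count in 4 libraries and 12 and 52 counts in ALDH_Low libraries 2 and 3, so its ALDH_Low level rests mostly on library 3 and no fold is given. GAGE12H ran the other way, with 25, 6 and 12 counts in ALDH_High and 3, 6 and 0 in ALDH_Low. GAGE2E had 14 counts in 1 ALDH_High library and 17 and 7 in 2 ALDH_Low libraries, and none elsewhere. The row that took most GAGE counts differed between libraries: GAGE1 in 3 of them, GAGE12F in 2 and GAGE2A in 1, with 27.3% to 42.6% of the family's counts. Adding the 11 GAGE members removes the division among them and gave 217, 140 and 150 counts in ALDH_High and 576, 190 and 262 in ALDH_Low. GAGE12D and GAGE12G, the closest copies of several of these rows, are not among the members, so any reads assigned to them are left out. In CPM the sums were 8.56, 4.05 and 4.4 in ALDH_High and 14.9, 6.36 and 9.42 in ALDH_Low. Between libraries of the same number the sum was lower in ALDH_High each time, while over all libraries the groups overlapped, with ALDH_High library 1 above ALDH_Low library 2. The log2 difference was -0.87 (95% interval -1.66 to -0.07, edgeR adjusted p = 0.122) and did not pass. With the replicate number as a block, a fit added after the data were seen, it was -0.85 (-1.25 to -0.45) and passed (adjusted p = 0.00797, edgeR). Without the block and without ALDH_High library 1 it was -1.28 and passed (0.022), while the other 5 fits that left out a library gave -0.47 to -1.12 and did not pass (0.0622 to 0.436).

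**Figure D4:**
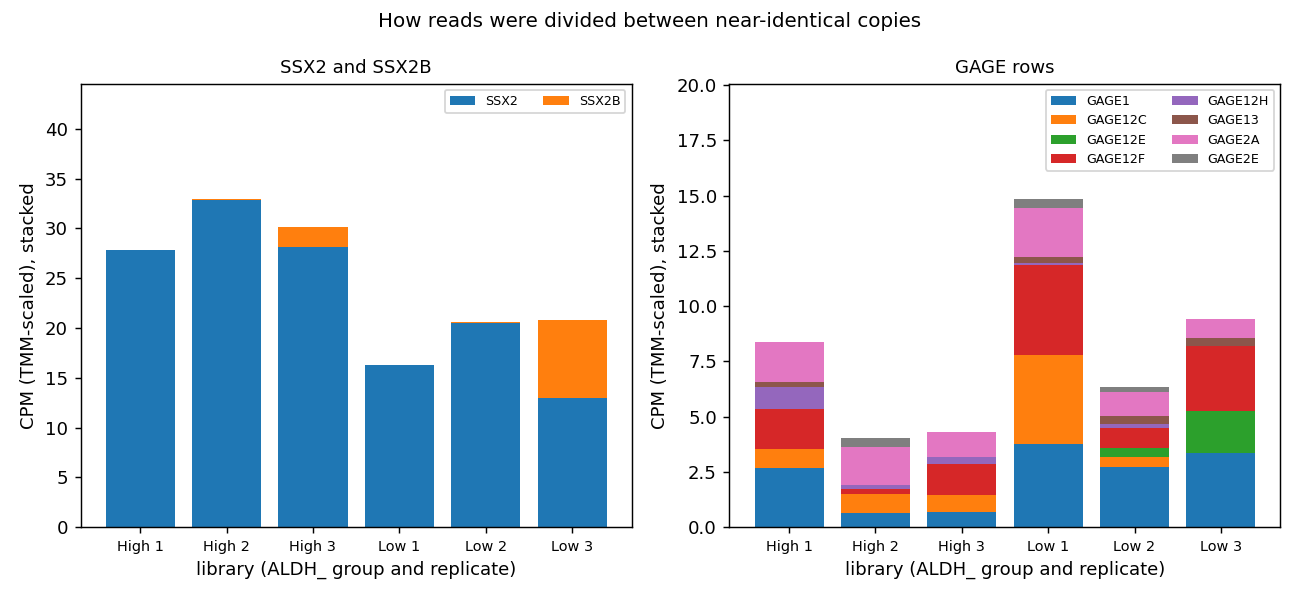
Stacked CPM of SSX2 and SSX2B (left) and of the 8 GAGE rows with more than 3 counts in any library (right), 1 bar per library. The SSX2B portion is large in ALDH_Low library 3 and small in the others while the height of the bars separates the groups; the GAGE bars change in make-up from library to library.

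The 24 members at or under the floor were MAGEA8, MAGEA9, MAGEB1, MAGEB3, MAGEB4, MAGEB5, MAGEB6B, MAGEB10, MAGEB16, MAGEB17, MAGEB18, MAGEE2, GAGE10, GAGE12B, GAGE12J, SSX5, SSX7, XAGE5 and the 6 CTAGE rows. A gene at the floor may be transcribed below what 3 counts per library can show. MAGEA9 had no count while MAGEA9B, with 84.7% of its stretches in common, had up to 19, so the division between them is uncertain.

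Other cancer-testis genes, outside the name rule, included larger differences than the members did. Of 57 such genes listed, 55 were in the table and 26 were tested: 2 were higher, 4 lower and 20 did not pass, a share near the 20.6% called over all genes, with a median log2 difference of -0.18 beside -0.013 over all genes. The SPANX genes, which encode sperm nuclear proteins, had large differences: SPANXB1 had 0.234 ± 0.00255 CPM in ALDH_High and 4.65 ± 2.09 in ALDH_Low (log2 -4.29, SE 0.41), and SPANXA1 had 0.558 ± 0.367 and 9.6 ± 2.68 (log2 -4.04, SE 0.44). Their edgeR adjusted p-values were 7.96e-05 and 1.51e-04; the SPANX genes are near-identical copies, so the division between them is uncertain. TEX15, which acts in meiosis and in transposon silencing in germ cells, was higher, with 1.49 ± 0.467 CPM against 0.106 ± 0.0534 (log2 3.8, SE 0.48, adjusted p = 4.13e-04, edgeR). IL13RA2, a decoy receptor for interleukin 13, was also higher, with 351 ± 68.8 against 196 ± 47.9 CPM (log2 0.84, SE 0.19). CSAG3 and CT83 were the 2 others that fell, by 0.46 and 0.76 on the log2 scale.

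Of 24 tested regulators of promoter methylation and germline gene repression, 2 were higher, 2 lower and 20 did not pass, beside 20.6% called over all genes, with a median log2 difference of 0.2. DNMT3B, a de novo DNA methyltransferase, had 11.6 ± 1.04 CPM in ALDH_High and 6.87 ± 0.419 in ALDH_Low (log2 0.75, SE 0.16, edgeR adjusted p = 0.00893). ATF7IP, a partner of the histone methyltransferase SETDB1, had 66 ± 0.677 and 49.3 ± 4.89 CPM (log2 0.42, SE 0.11). MBD2, which binds methylated CG, had 53.5 ± 3.83 and 87.4 ± 17.1 CPM (log2 -0.71, SE 0.15), and the deacetylase HDAC1 159.6 ± 3.86 and 203 ± 8.62 (log2 -0.34, SE 0.1). Among 18 tested partners of MAGE, PRAME and SSX proteins, PJA1 was higher, none was lower and 17 did not pass, beside 20.6% called over all genes, with a median log2 difference of 0.056. PJA1, a ubiquitin ligase that binds MAGED1, had 20.6 ± 3.53 and 13.4 ± 0.35 CPM (log2 0.61, SE 0.15, adjusted p = 0.0177, edgeR). NSMCE1 (log2 -0.35), SS18 (-0.36) and RARA (-0.27) were next by p and did not pass.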

How the data were processed

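RNA sequencing of 6 libraries, 3 ALDH_High and 3 ALDH_Low, was analysed from a table of counts and a table of TPM. The submitters' processing notes name FastQC 0.11.3, STAR 2.5.1b, HTSeq 0.6.1, DESeq2 and the build GRCh38, with no roles given. The authors deposited whole-number values that were treated as estimated counts rounded to whole numbers, because 133 to 177 genes per library had a count of 0 beside a TPM above 0; how reads shared by copies were assigned, and whether strand was used, is not given in the sources used here. The TPM values were also deposited by the authors, with gene lengths that are not given in the sources used here.

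Members and lists were chosen with earlier results of these data known. Counts were filtered with filterByExpr, scaled with TMM factors and tested across 17047 genes with the quasi-likelihood F-test of edgeR 4.0.16 in R 4.3.3, two-sided, with Benjamini-Hochberg adjustment and a threshold of 0.05. CPM values use TMM-scaled library sizes, and SE is that of the log2 fold change. Named genes were all members that passed the filter, the members below it with more than 3 counts in a library, and the 4 genes with the smallest p of each list; CSAG3 and CT83 were added after their values were seen. Fits were tested on simulated counts. Alternatives were DESeq2 1.42.0, limma 3.58.1 on log2(TPM + 1) and log2(TPM + 0.1), other scalings and filters, a replicate block, summed copies and each library left out in turn; leaving out libraries and the block with copies summed were added after the data were seen. Uniqueness is the share of a gene's 50-base stretches found in no other gene of GENCODE 44. Intervals cover counting error or the spread between libraries only.

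Libraries with the same replicate number deviated together from their group means (correlations 0.194, 0.132 and 0.106 on log2(CPM + 0.5), and 0.15, 0.076 and 0.108 with a prior count of 2). Nothing in the labels says what a number marks. The reported fit has no block and so leaves out any pairing. A fit with the number as a block is given as an alternative.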

Additional observations from a re-analysis of the deposited data

How the results depend on the processing

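Of the 7 calls, MAGED2 and MAGEA10 passed in all 15 alternatives. The number of members past the threshold was 7 of 30 tested, and 7 of 22 rows with near-identical copies summed. It was 15 of 57 when low counts were not filtered (8 higher, 7 lower). Those 15 include SSX2B, whose groups overlapped, and GAGE12E, whose counts came mostly from 1 library. The number was 4 in the limma fit of unfiltered log2(TPM + 1) values and 3 at an adjusted p below 0.01. It ranged from 3 to 8 when each library was left out, with 3 without ALDH_Low library 2 and 3 without ALDH_Low library 3. Over all genes the number was 3513 of 17047, with 4466 of 34665 when low counts were not filtered, 2006 in that limma fit and 1930 at an adjusted p below 0.01. With the replicate block the number was 3748 over all genes and 9 among members; the block gave GAGE1 and GAGE12F a call and changed no other member's. PRAME lay between 0.33 and 0.57 when a library was left out. Of the 6 sums of copies tested 1 passed, between 1 and 2 with a library left out, and 2 with the replicate block, which added the GAGE sum. The sign changed only in members that did not pass, from small values except for GAGE12C; the cause was not tested. GAGE12C was 0.19 with the block, 0.14, 0.71 and 0.14 in the limma fits, and between -1.44 and 1.69 with a library left out. MAGEA2B was 0.0018 with DESeq2 size factors, 0.0045 without the filter, 0.0011 with the block, 0.013 in DESeq2, 0.051 in limma and between -0.14 and 0.085 with a library left out. MAGEA6 was 0.0078, 0.011, 6.1e-04 and 0.019 under the same 4 settings, 4.2e-04 with at least 10 counts in every library, 0.05, 0.051 and 0.05 in limma, and between -0.04 and 0.036 with a library left out. MAGEA4 was 0.021 in limma and between -0.053 and 0.011 with a library left out. With upper-quartile factors MAGEA12 was -0.0082, MAGEE1 -0.01 and SSX2IP -0.046, while SSX2IP was -0.0096 with the block. With a library left out GAGE2A lay between -0.074 and 0.69, MAGEA2 between -0.21 and 0.026, MAGEB2 between -0.14 and 0.057, MAGEE1 between -0.028 and 0.14 and SSX2IP between -0.12 and 0.11.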
